A study of Mus musculus with 8 samples.

Results

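Tight junction genes of mouse epidermis were described here through 8 genes, taken by symbol from the 16902 genes of the expression tables: Cgn, Tjp1 and Tjp3 (cytoplasmic scaffold proteins), Ocln and Marveld2 (membrane proteins of the MARVEL family), Cldn1 and Cldn4 (claudins) and F11r (an adhesion molecule). All 8 had a value in every library and all 8 passed the filter on low values. RNA was sequenced from the epidermis of CD1 mouse back skin, separated from the dermis with dispase, in 4 groups of 2 libraries, each with 1 female and 1 male mouse. The mice were Ovol1 -/- under imiquimod (IMQ), Ovol1 +/+ controls under IMQ, untreated Ovol1 -/- and untreated Ovol1 +/- controls. Ovol1 is a zinc-finger repressor of epithelial cells, and IMQ, which activates Toll-like receptors, is applied to mouse skin as a model of psoriasis. The control genotype differed between the treatments, and all genotypes are given as labelled. The columns of both tables name the controls WT. Sources used here do not give the age, how the Ovol1 alleles were made or the dose and duration of IMQ.

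Tight junctions seal the space between neighbouring epithelial cells. Claudins form the paracellular strands, occludin and tricellulin stabilise them, and cytoplasmic scaffolds of the zonula occludens and cingulin families tie them to actin. In the epidermis working tight junctions lie in the granular layer, below the cornified layer, and mice that lack Cldn1 die soon after birth from loss of water through the skin.

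The libraries held 28.6 to 43.1 M reads. Krt5 and Krt14, keratins of basal keratinocytes, were at 132064 to 241752 and at 169079 to 258042 normalised counts over the 8 libraries. Col1a1, a collagen of dermal fibroblasts, was also read in every library, at 435 to 23560 normalised counts, and was higher in the male than in the female library of each group. The libraries labelled Ovol1 -/- held more Ovol1 reads than the controls, with 13457 and 13076 normalised counts in -/- against 7635 and 9556 in +/+ epidermis under IMQ, and 27433 and 26601 in -/- against 16629 and 14582 in +/- untreated epidermis. The tables have 1 value per gene, which cannot show a deleted exon, so these values do not check the genotype labels. Nothing in the labels says whether the 2 mice of a group were littermates, and p-values measure the spread between these libraries.

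All 8 genes are protein-coding in the GENCODE vM21 annotation of GRCm38 (mm10). Cgn lies on chromosome 3 (94760069 to 94786492, minus strand), Tjp1 on chromosome 7 (65296165 to 65527781, minus strand) and Tjp3 on chromosome 10 (81273207 to 81291581, minus strand). Ocln (100496507 to 100552718) and Marveld2 (100595957 to 100616971) lie on the minus strand of chromosome 13, with 43.2 kb between them. Cldn1 is on chromosome 16 (26356642 to 26371841, minus strand), Cldn4 on chromosome 5 (134945119 to 134946934, minus strand) and F11r on chromosome 1 (171437535 to 171464603, plus strand). Cldn3, a claudin closely related to Cldn4, starts 39.3 kb beyond Cldn4 on the opposite strand.

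The promoters of Cgn, Tjp3, Ocln and Cldn4 are shown because these 4 members were lower in -/- than in +/+ epidermis under IMQ in both sexes, with an unadjusted p under 0.05. Each is the 250 bases before the RefSeq start (GRCm38.p6), read 5′ to 3′ on the gene's minus strand, at chr3:94786483-94786732 for Cgn, chr10:81291582-81291831 for Tjp3, chr13:100552719-100552968 for Ocln and chr5:134946935-134947184 for Cldn4. Tjp3 and Ocln have 2 RefSeq starts each, and the outer one is shown. Capitals mark matches to the motifs searched.
Cgn: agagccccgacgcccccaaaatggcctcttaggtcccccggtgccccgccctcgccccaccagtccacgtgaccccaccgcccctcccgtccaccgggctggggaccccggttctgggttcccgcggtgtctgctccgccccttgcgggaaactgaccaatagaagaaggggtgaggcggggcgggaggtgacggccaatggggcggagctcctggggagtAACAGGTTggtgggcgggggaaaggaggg
Tjp3: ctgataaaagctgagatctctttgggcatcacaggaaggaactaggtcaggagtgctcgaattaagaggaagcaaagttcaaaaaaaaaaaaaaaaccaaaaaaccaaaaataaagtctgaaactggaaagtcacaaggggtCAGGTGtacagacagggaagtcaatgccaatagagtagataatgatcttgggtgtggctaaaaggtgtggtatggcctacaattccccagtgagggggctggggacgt
Ocln: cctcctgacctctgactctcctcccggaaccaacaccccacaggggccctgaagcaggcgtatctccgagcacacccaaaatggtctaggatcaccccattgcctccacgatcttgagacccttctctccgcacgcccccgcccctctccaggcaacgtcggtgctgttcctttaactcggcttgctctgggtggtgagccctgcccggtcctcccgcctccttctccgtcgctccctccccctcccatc
Cldn4: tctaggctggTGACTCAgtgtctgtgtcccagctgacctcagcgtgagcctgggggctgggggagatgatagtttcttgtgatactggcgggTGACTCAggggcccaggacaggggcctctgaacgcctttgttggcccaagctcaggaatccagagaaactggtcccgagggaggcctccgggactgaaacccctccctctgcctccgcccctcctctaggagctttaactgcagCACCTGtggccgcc

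The motifs were CCGTTA (bound by OVOL proteins), CAGGTG (the E-box of Snail and Zeb repressors), AACNGGTT (Grainyhead-like factors, with AACCGGTT as its full form) and TGANTCA (AP-1), each on both strands. No CCGTTA was found in the 11 windows of the 8 members, while 2.18% of all 32851 RefSeq windows of this length hold it. The Cgn window holds AACAGGTT starting 29 bases before the start, a match to AACNGGTT, which 1.79% of all windows hold, and no member window holds AACCGGTT, found in 0.116% of all windows. The Cldn4 window holds TGACTCA at 240 and at 158 bases before the start, and CACCTG, the reverse complement of CAGGTG, at 14 bases before it. The Tjp3 window shown has CAGGTG at 108 bases before the start, and the Ocln window shown has no match. In all, CAGGTG was in 5 of the 11 member windows (Cldn4, F11r, Ocln and Tjp3) and in 17.2% of all windows, and TGANTCA in 2 (Cldn4 and F11r) against 6.75%. The other Ocln start has CAGGTG at 213 and 68 bases before it. A match gives the letters of the window and not binding of a factor.

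Levels can be compared between genes only per length of transcript, for which TPM values (transcript share scaled to a fixed sum) were computed from the recovered reads and the exon length of each gene. In TPM, Cldn4 came first in all 4 groups, at 945 ± 21.3 in -/- and 1525 ± 17.3 in +/+ epidermis under IMQ, and at 1738 ± 484 in -/- and 2021 ± 809 in +/- untreated epidermis (SD, n = 2 each). Cldn1 was second throughout, at 406 ± 44.5 in -/- and 431 ± 112 in +/+ under IMQ, and at 770 ± 127 in -/- and 794 ± 235 in +/- untreated epidermis. F11r, which encodes JAM-A and helps to recruit polarity proteins to new junctions, followed, with group means of 311 to 540 TPM, and in both control groups its libraries overlapped those of Cldn1. These 3 genes are membrane proteins, and no other member exceeded 144 TPM in any library.

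The order of the lower members varied by group. In untreated -/- epidermis Ocln (135 ± 11.5 TPM) stood above Cgn (115 ± 7.58 TPM), and in the +/- controls Cgn (122 ± 30.6 TPM) and Ocln (115 ± 8.79 TPM) overlapped. Tjp3 and Tjp1 followed and overlapped in both untreated groups, and Marveld2 was last, at 57.2 ± 1.15 TPM in -/- and 42.7 ± 1.35 TPM in +/- epidermis. Under IMQ the last place in -/- epidermis was that of Cgn (15.6 ± 11.3 TPM), which overlapped Marveld2 (19.1 ± 2.26 TPM). In +/+ epidermis under IMQ Cgn came after F11r (56.7 ± 7.11 TPM), overlapping Tjp3 (54.4 ± 1.85 TPM), and Marveld2 was last (18.6 ± 5.22 TPM).

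Cldn1 and Cldn4 made up 94.6% and 92.5% of the TPM of the 15 claudin genes in the female and male -/- libraries under IMQ, against 93.2% and 93.4% in the +/+ libraries. In untreated epidermis the share was 93.4% and 89.2% in the -/- libraries, against 95.0% and 87.0% in the +/- libraries. The claudin message of this tissue was therefore mostly that of 2 members in every library. After them came Cldn23 and Cldn3, chosen after their values were seen, with 1.67% to 8.48% and 1.44% to 3.01% of the claudin TPM over the 8 libraries.

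The comparison under IMQ asks how the tight junction genes of inflamed epidermis differ between Ovol1 -/- and +/+ mice. No member passed the limma threshold (adjusted p under 0.05 over all 14614 genes tested), where 0.438% of all genes did. Cgn, Tjp3, Ocln and Cldn4 were lower in -/- at an unadjusted p under 0.05, 4 of 8 members against 11.9% of all genes. In 5 of 8 members both -/- libraries lay below both +/+ libraries, as in 26.4% of all genes. The members were chosen with earlier results of these data known, so their shares, here and below, are descriptive only. The edgeR test on recovered reads called 0 members and DESeq2 called 1, Cgn, against 0.294% and 8.50% of all genes.

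Cgn encodes cingulin, a scaffold that links zonula occludens proteins to actomyosin and microtubules, and it showed the largest difference of the 8. Under IMQ its normalised counts were 461 and 1538 in the female and male -/- libraries, against 3034 and 4017 in the female and male +/+ libraries. Both -/- libraries lay below both +/+ libraries, and the female -/- library was the lowest. The log2 fold change of -/- against +/+ was -2.05 (SE 0.49, limma adjusted p = 0.0934). With the sex of the mice as a block it passed (adjusted p = 0.0382), as did 2.45% of all genes, or 1.86% in the lower direction, but edgeR with the same block gave an adjusted p of 0.0516 and did not call it. By sex the value was -2.72 for females and -1.38 for males. Without the female -/- library it was -1.18 (adjusted p = 0.291) and without the male one -2.92 (adjusted p = 0.0135), so its size and its call depend on which -/- library is left out. In each of these fits the lone -/- library is assumed to vary like the other groups. Over all alternatives the adjusted p ran from 0.00189 to 0.291.

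Tjp3 encodes ZO-3, a zonula occludens scaffold of epithelial cells. Under IMQ it had 922 and 1569 normalised counts in the female and male -/- libraries, against 2019 and 2132 in the +/+ libraries. The 2 +/+ libraries were close to each other and the -/- libraries were both lower. The log2 fold change was -0.79 (SE 0.27, limma adjusted p = 0.160, and 0.0576 with sex as a block), with -1.13 for females and -0.44 for males. Without the female -/- library it was -0.40 (adjusted p = 0.548). Tjp1 encodes ZO-1, the founding member of this scaffold family, and stood on the other side. It had 3991 and 4207 normalised counts in the -/- libraries, against 3829 and 3780 in the +/+ libraries. The log2 fold change was 0.11 (SE 0.13, adjusted p = 0.663), with both -/- libraries above both +/+ libraries, as in 26.6% of all genes.

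**Figure D1:**
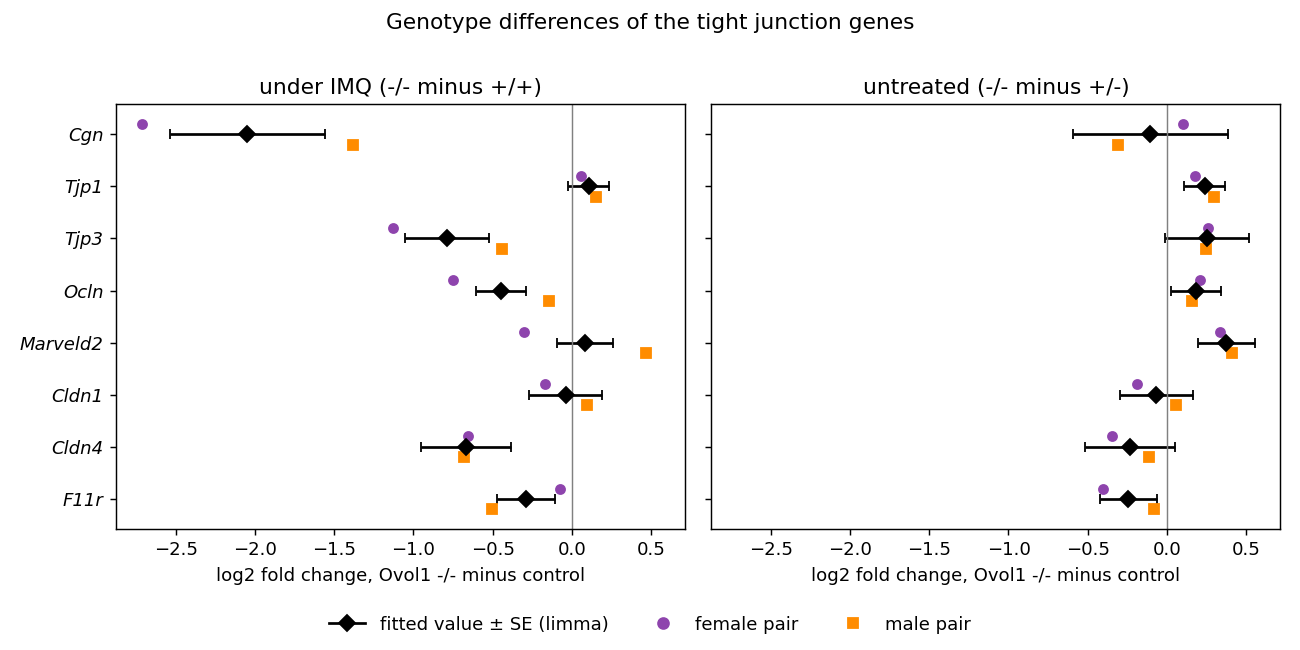
Log2 fold changes of the 8 tight junction genes, Ovol1 -/- minus control (x axis), under IMQ on the left and untreated on the right; diamonds with bars give the limma value ± SE (2 libraries per group), circles the female pair and squares the male pair. Under IMQ Cgn is at -2.05, Tjp3 at -0.79 and Cldn4 at -0.67, while Tjp1, Marveld2 and Cldn1 are near 0, and none of the 8 passed the threshold.

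Ocln encodes occludin, the first tight junction membrane protein described. Under IMQ it had 1495 and 1763 normalised counts in the female and male -/- libraries, against 2510 and 1947 in the +/+ libraries. The groups did not overlap, but the male libraries differed little. Its log2 fold change was -0.45 (SE 0.16, limma adjusted p = 0.171), with -0.75 for females and -0.14 for males. Without the female +/+ library it was -0.26 (adjusted p = 0.518). Marveld2 encodes tricellulin, which seals the corners where 3 cells meet. It had 596 and 756 normalised counts in the -/- libraries, against 735 and 545 in the +/+ libraries, and the groups overlapped. Its log2 fold change was 0.09 (SE 0.18, adjusted p = 0.814), and the sexes had opposite signs (-0.30 for females and 0.47 for males).

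Cldn4 is a claudin of many simple epithelia and of the suprabasal epidermis. Under IMQ it had 17052 and 18862 normalised counts in the female and male -/- libraries, against 26803 and 30183 in the +/+ libraries. Both sexes showed nearly the same difference, -0.65 for females and -0.68 for males. The fitted log2 fold change was -0.67 (SE 0.28, limma adjusted p = 0.227). Cldn1, the claudin needed for the water barrier, had 21404 and 19636 normalised counts in the -/- libraries, against 24102 and 18394 in the +/+ libraries. These groups overlapped, and its log2 fold change was -0.04 (SE 0.23, adjusted p = 0.943). F11r had 9575 and 7665 normalised counts in the -/- libraries, against 10078 and 10859 in the +/+ libraries. Its log2 fold change was -0.29 (SE 0.18, adjusted p = 0.385), with -0.07 for females and -0.50 for males.

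Over the 8 members the median log2 fold change under IMQ was -0.37, with 6 negative, beside a median of -0.01 over all genes tested, of which 51.2% were negative. Markers of cell layers and of other cells also differed in the same contrast, though none of those below was called. Their levels are given as summed CPM (depth-scaled reads with TMM factors over the 8 libraries). The 10 granular and cornified keratinocyte markers summed to 4851 and 7612 CPM in the female and male -/- libraries, against 7159 and 9398 CPM in the +/+ libraries, and 8 of them were negative with a median of -0.39. Spinous and basal markers were also mostly negative (5 of 6 and 6 of 8), with medians of -0.19 and -0.17. The 10 hair follicle markers summed to 5973 and 5834 CPM in -/-, against 3220 and 4109 CPM in +/+, with 5 of the 8 tested positive. The 8 endothelial markers, of a cell type that has tight junctions of its own, summed to 4.60 and 6.43 CPM in -/-, against 44.4 and 7.19 CPM in +/+, so the female +/+ library held the most. The 10 dermal fibroblast markers summed to 179 and 1712 CPM in -/-, against 301 and 2657 CPM in +/+. A neutrophil list (S100a8, S100a9, Csf3r, Cxcr2, Ly6g and Retnlg, of which 5 had values) summed to 588 and 461 CPM in -/-, against 58.8 and 271 CPM in +/+. Which cells the reads of that list came from cannot be told in bulk epidermis. The 6 adherens junction genes summed to 3567 and 3246 CPM in -/-, against 3860 and 3706 CPM in +/+, with 3 of 6 negative and a median of -0.01. Of the endothelial, fibroblast, granular and adherens junction genes none was at 0 in any library, and 1 neutrophil marker was at 0 in the female -/- library under IMQ. The part of these cells in the differences was not tested, and in bulk epidermis fewer cells of a layer and less RNA per cell cannot be told apart.

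In untreated epidermis the question is how the same genes differ between -/- and +/- mice without inflammation. No member was called (limma adjusted p of 1.00 for each), as was 0% of all genes, and none had an unadjusted p under 0.05, where 4.46% of all genes did. The edgeR and DESeq2 tests each called 0 members, where DESeq2 called 0.609% of all genes, and 8 genes of all those tested (0.0547%) passed with sex as a block, with no member among them. The members split evenly, 4 positive and 4 negative, with a median log2 fold change of 0.06 beside -0.0023 over all genes.

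Tjp1, Ocln and Marveld2 had both -/- libraries above both +/- libraries in untreated epidermis, 3 of 8 members against 17.4% of all genes. Marveld2 had 2089 and 2156 normalised counts in the female and male -/- libraries, against 1651 and 1616 in the +/- libraries. The log2 fold change was 0.38 (SE 0.18), larger than for any other member in this contrast. Tjp1 had 6855 and 6145 normalised counts in -/- and 6064 and 4986 in +/- libraries, and Ocln had 6594 and 5858 in -/- and 5711 and 5246 in +/- libraries. Their log2 fold changes were 0.24 (SE 0.13) and 0.18 (SE 0.16).

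For the other members the untreated groups overlapped. Cgn had 7228 and 7959 normalised counts in the female and male -/- libraries, against 6729 and 9873 in the +/- libraries (log2 fold change -0.10, SE 0.49). Tjp3 had 3045 and 4007 in -/-, against 2544 and 3377 in +/- libraries (0.25, SE 0.27), higher in -/- in both sexes. The claudins overlapped widely between the genotypes. Cldn1 had 45554 and 36182 in -/-, against 51943 and 34757 in +/- libraries (-0.07, SE 0.23), and Cldn4 had 41353 and 27822 in -/-, against 52612 and 30109 in +/- libraries (-0.23, SE 0.28), so that the female library was the higher one in each group. F11r had 14199 and 12958 in -/-, against 18770 and 13702 in +/- libraries (-0.24, SE 0.18), with the female +/- library highest.

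Whether the genotype difference itself differed between IMQ and untreated epidermis was tested as the difference of the 2 contrasts. The controls were +/+ under IMQ and +/- untreated, so in this difference the treatment and the control genotype cannot be told apart. No member passed (0 with limma, edgeR and DESeq2), as did 0% of all genes with limma and 0.677% with DESeq2, and 3 of 8 members had an unadjusted p under 0.05 with a negative value, against 6.02% of all genes. The difference was -1.95 for Cgn (SE 0.69, unadjusted p = 0.0246), -1.04 for Tjp3 (SE 0.38, unadjusted p = 0.0258) and -0.63 for Ocln (SE 0.22, unadjusted p = 0.0241), each with an adjusted p of 0.476. Without the female -/- library under IMQ the difference was -1.08 for Cgn and -0.66 for Tjp3, and without the male one -2.81 for Cgn and -1.42 for Tjp3. The values for the other 5 members ran from -0.43 for Cldn4 to 0.03 for Cldn1.

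IMQ and untreated epidermis were set against each other as log2 of CPM plus 0.5. Since the authors normalised the 2 tables separately, recovered reads scaled over all 8 libraries were used. No test was run, so these values are descriptive. All 8 members had lower means under IMQ in both genotypes. In -/- mice both IMQ libraries lay below both untreated libraries for 8 of 8 members, as for 40.1% of all genes, and in controls for 6 of 8, as for 32.3% of all genes. The median difference over the members was -0.95 in -/- mice and -0.53 in controls, beside -0.01 and 0.02 over all genes. In the controls the IMQ mice were +/+ and the untreated mice +/-, so genotype and treatment cannot be told apart there. These differences share libraries with the genotype contrasts and are a second view of the same values.

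Markers of cell layers and of other cells also differed between the treatments. The 10 granular and cornified markers summed to 4851 and 7612 CPM in the female and male -/- libraries under IMQ, against 6072 and 7059 CPM untreated, and to 7159 and 9398 CPM in the controls under IMQ, against 6172 and 9465 CPM untreated, so the treatments overlapped in both genotypes. Flg, which encodes the granular protein filaggrin, had 12.1 and 24.6 CPM in -/- under IMQ, against 43.3 and 65.8 CPM untreated, and 15.2 and 36.1 CPM in controls under IMQ, against 32.2 and 49.0 CPM untreated. Krt10, a keratin of the spinous layer, had 3789 and 6146 CPM in -/- under IMQ, against 7989 and 7990.3 CPM untreated, and 6406 and 8716 CPM in controls under IMQ, against 8866 and 7792 CPM untreated. Flg and Krt10 were thus lower under IMQ without overlap in -/- mice and overlapped in controls. Ivl, of the same granular and cornified list as Flg, went the other way in -/- mice. It had 398 and 415 CPM under IMQ, against 246 and 297 CPM untreated. Lor, also of that list, overlapped in -/- mice, with 1032.5 and 2558 CPM under IMQ against 2135 and 2533 CPM untreated. In controls Ivl and Lor overlapped between the treatments. Col1a1 had 15.2 and 487 CPM in -/- under IMQ, against 11.5 and 152 CPM untreated, and 50.3 and 765 CPM in controls under IMQ, against 26.6 and 144 CPM untreated, higher under IMQ in each sex. The 5 genes of the neutrophil list, S100a8 and S100a9 being on that list, summed to 58.8 to 588 CPM over the 4 libraries under IMQ. Over the 4 untreated libraries they summed to 3.63 to 8.05 CPM, and the cells that held these reads cannot be told here. The part of cell layers and other cells in the lower levels of the members was not tested.

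**Figure D2:**
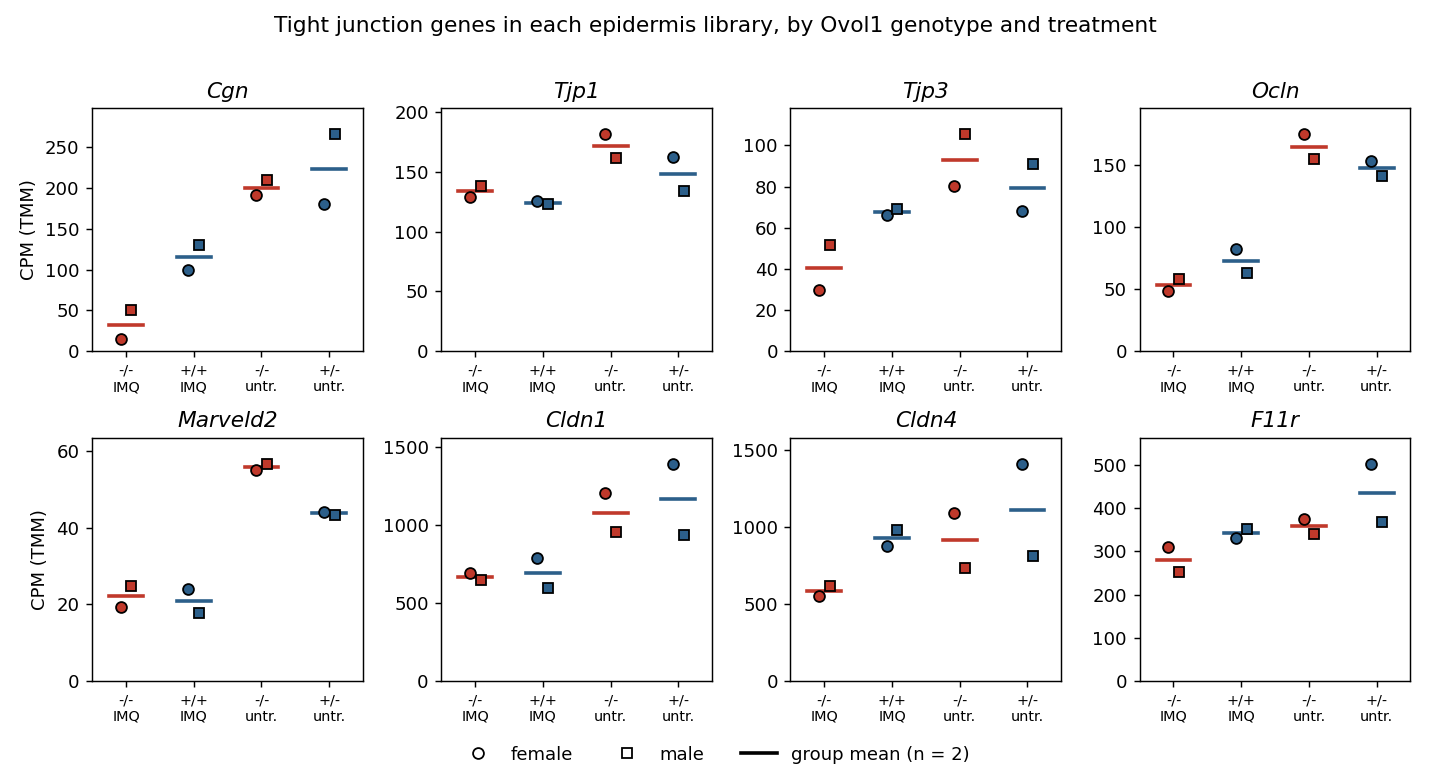
Level of each tight junction gene in the 8 libraries, in CPM with TMM factors (y axis from 0), by Ovol1 genotype and treatment; circles are female and squares male mice, and lines are group means (n = 2). Cgn is at 14.9 and 50.4 CPM in -/- epidermis under IMQ, below all other libraries, and Ocln and Marveld2 are lower under IMQ in both genotypes.

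The membrane proteins of the MARVEL family were lower under IMQ in both genotypes. Ocln had 48.4 and 57.8 CPM in the female and male -/- libraries under IMQ, against 174 and 154 CPM in the untreated -/- libraries (log2 difference -1.62). In controls it had 82.3 and 63.2 CPM under IMQ, against 153 and 141 CPM untreated (-1.02). Marveld2 had 19.3 and 24.8 CPM in -/- epidermis under IMQ, against 55.2 and 56.7 CPM untreated (-1.33), and 24.1 and 17.7 CPM in controls under IMQ, against 44.2 and 43.5 CPM untreated (-1.07). Neither gene overlapped between treatments.

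The scaffolds differed more from one another. Cgn had 14.9 and 50.4 CPM in the female and male -/- libraries under IMQ, against 191 and 209 CPM in the untreated -/- libraries (log2 difference -2.84, -3.63 for females and -2.04 for males). In controls it had 99.5 and 130 CPM under IMQ, against 180 and 265.5 CPM untreated (-0.94). Tjp3 was at 29.8 and 51.5 CPM in -/- under IMQ, against 80.5 and 105 CPM untreated (-1.22). In controls Tjp3 had 66.2 and 69.2 CPM under IMQ, against 68.1 and 90.8 CPM untreated, and the 2 treatments overlapped (-0.22). Tjp1 showed small differences in both genotypes, -0.36 in -/- mice and -0.25 in controls.

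Cldn1 had nearly the same difference in both genotypes, -0.68 in -/- mice (693 and 644 CPM under IMQ, against 1204 and 952 CPM untreated) and -0.73 in controls (790 and 597 CPM under IMQ, against 1391 and 935 CPM untreated). Cldn4 was at -0.61 in -/- mice, with 552 and 619 CPM under IMQ against 1093 and 732 CPM untreated. In controls it was at -0.20, with 879 and 980 CPM under IMQ against 1409 and 810 CPM untreated, and the 2 control sexes went opposite ways (-0.68 for females and 0.27 for males). Left without the female untreated control, its control difference was 0.20. F11r differed by -0.36 in -/- mice, with 310 and 251 CPM under IMQ against 375 and 341 CPM untreated, and by -0.33 in controls, with 330 and 352 CPM under IMQ against 503 and 369 CPM untreated. In -/- mice it was -0.21 without the male library under IMQ, and in controls -0.11 without the female and -0.56 without the male untreated library.

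**Figure D3:**
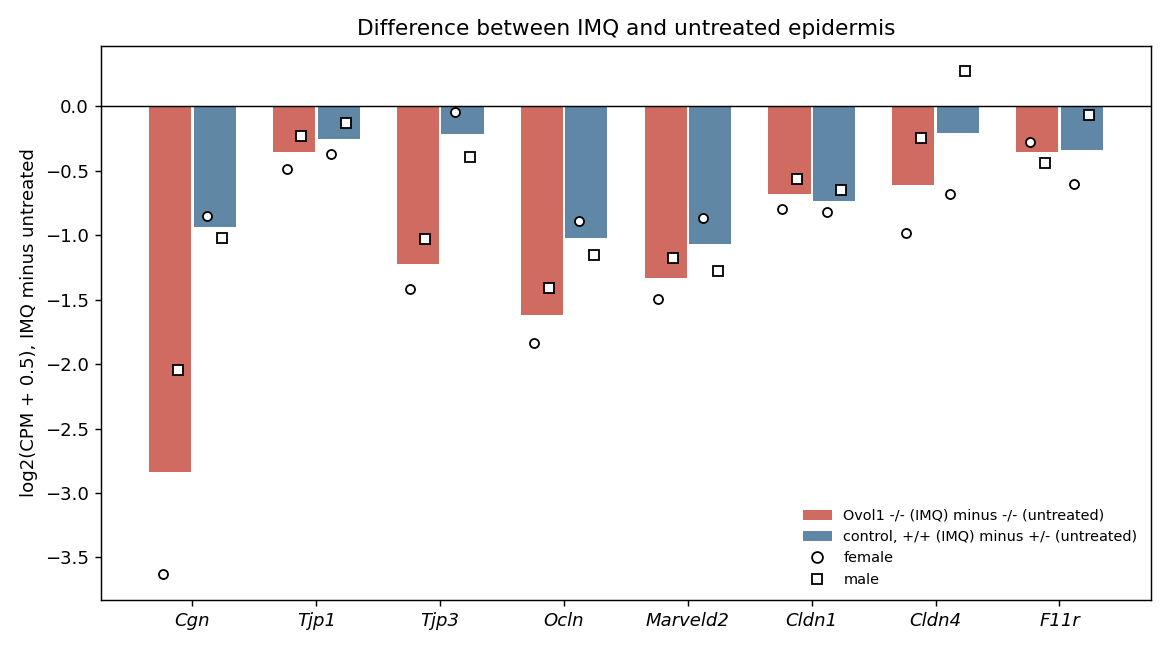
Difference between IMQ and untreated epidermis in log2(CPM + 0.5) for each tight junction gene, in Ovol1 -/- mice (left bar of each pair) and controls (right bar); circles and squares are the female and male differences. Cgn is at -2.84 in -/- mice and -0.94 in controls, while Cldn1 is at -0.68 and -0.73.

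A wider list of tight junction genes, 52 with values in the tables and 48 tested, gave the surroundings of the members. Under IMQ 0 of the 48 passed (limma; 0 with sex as a block), and 2 were higher and 11 lower in -/- at an unadjusted p under 0.05, 13 of 48 in all, against 22.0% of all genes. The 2 higher ones, chosen after their values were seen, were Cldn12 (log2 fold change 0.43) and Magi2 (0.87). Of the 48, 36 were negative, with a median log2 fold change of -0.28 beside -0.01 over all genes. The median was -0.48 over 11 other claudins (Cldnd1 counted among them), -0.23 over 8 other membrane proteins of tight and tricellular junctions and -0.29 over 29 other plaque and polarity proteins. The claudin median was the value of Cldn10 (SE 0.54), whose groups overlapped. Some of these claudins had few reads under IMQ, such as Cldn5 (4 to 21) and Cldn8 (3 to 16), so their values are imprecise. In untreated epidermis 22 of the 48 were negative, with a median of 0.02, and none had an unadjusted p under 0.05.

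**Figure D4:**
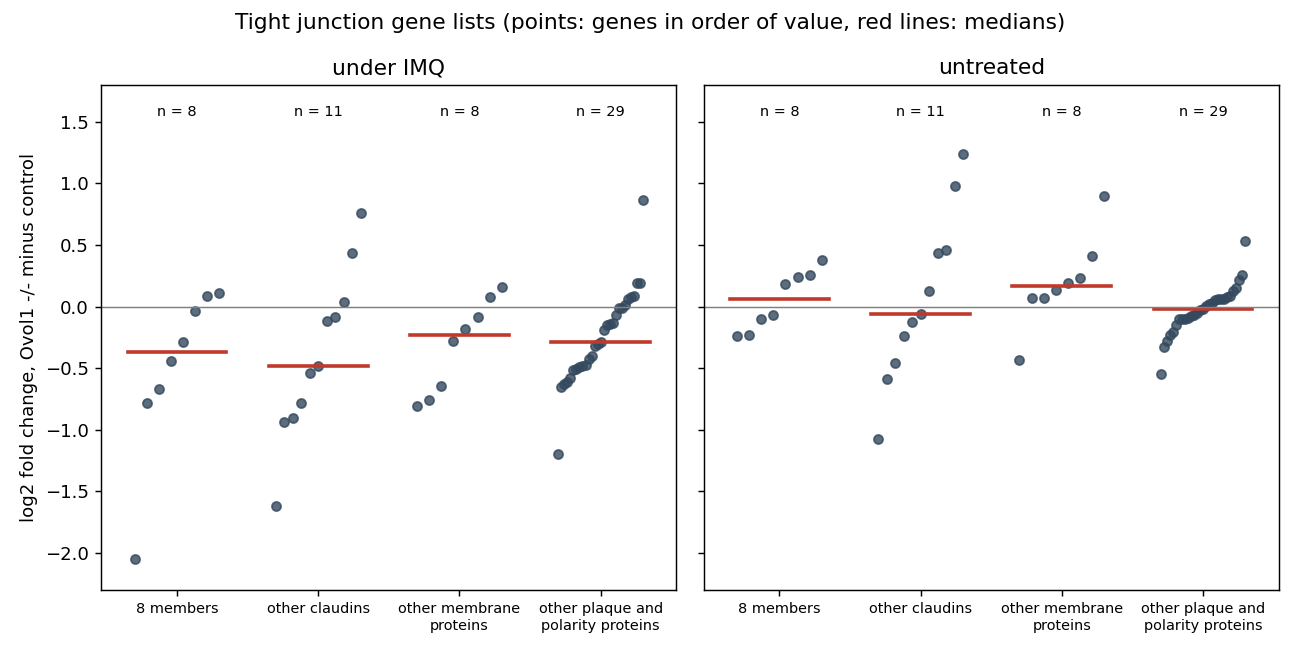
Log2 fold changes of -/- against control for the 8 members and the 48 further tight junction genes in 3 lists, under IMQ on the left and untreated on the right; each point is a gene, placed in order of its value, and red lines are medians. Under IMQ the medians are -0.37, -0.48, -0.23 and -0.29 from left to right, and untreated they are 0.06, -0.06, 0.16 and -0.02. The list of other claudins includes genes with few reads.

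Magi1, a scaffold with PDZ domains found at tight junctions, was the wider gene with the smallest p under IMQ. It had 391 and 506 normalised counts in the female and male -/- libraries, against 1194 and 872 in the +/+ libraries, and the groups did not overlap. Its log2 fold change was -1.20 (SE 0.27, limma adjusted p = 0.0861, and 0.0585 with sex as a block). Plekha7, a protein of the adherens junction belt next to tight junctions, had 984 and 956 in -/-, against 1408 and 1370 in +/+ libraries. The sexes gave the same value, -0.52 in each pair (SE 0.12, adjusted p = 0.0878).

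Tjap1, a protein associated with tight junctions, and Amotl2, an angiomotin-like scaffold, had log2 fold changes of -0.51 (SE 0.14) and -0.58 (SE 0.17), each with a limma adjusted p of 0.123. Cldn3 had 264 and 427 normalised counts in the female and male -/- libraries under IMQ, against 601 and 559 in the +/+ libraries. Its log2 fold change of -0.79 (SE 0.26, adjusted p = 0.157) was of the same sign as that of Cldn4. Untreated, none of these 5 genes passed 0.24 in size, with both signs among them. The difference of the contrasts had an unadjusted limma p under 0.05 for 3 of the 48, all negative. That is about the same share as the 6.02% of all genes that were negative at this level. The 3 were Magi1 (-1.32), Plekha7 (-0.58) and Tjap1 (-0.53), each with a limma adjusted p of 0.476.

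Among genes outside the tight junction lists, that with the pattern most like Cgn over the 8 libraries was Pid1 (Pearson r = 0.997 on log2 CPM), with 12.9 and 36.1 normalised counts in -/- and 67.9 and 73.1 in +/+ epidermis under IMQ. For Tjp3 it was Inpp5b (r = 0.991), for Tjp1 Atrx (r = 0.989), for Ocln Rpgrip1l (r = 0.996) and for Marveld2 Tmem132a (r = 0.993). For Cldn1 it was Gas2l3 (r = 0.980), for Cldn4 Fam178b (r = 0.986, at under 23 normalised counts in each library) and for F11r Wipf2 (r = 0.976). Each is the best of the genes tested outside those lists, with predicted genes (Gm and Rik symbols) left out. The 8 libraries split by treatment, and each match describes these libraries alone.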

How the data were processed

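The submitters' processing notes list mm10, DESeq2 1.24.0 under R 3.6.1, STAR 2.5.2a and Trimmomatic 0.35. Read counter and annotation: not given in the sources used here. Per the labels' protocols stranded libraries were made from poly(A)-selected mRNA and read as 100-bp paired ends. The deposited values are a signal, called normalised counts here: each library's reads over its own size factor, in separate IMQ and untreated tables that the authors scaled on their own. All values (100%) were whole multiples of 1 step per library within 0.001 read, which gave whole recovered reads.

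Genotype contrasts were fitted with limma 3.58.1 (R 4.3.3) on log2(normalised count + 1) over all 8 libraries and 4 group means, with trend and robust moderation, for 14614 genes with a mean of at least 10 in either table. Fold changes are on that scale. Benjamini-Hochberg adjustment ran over these genes, with a threshold of 0.05. Same-sex libraries deviated together from their group means in every pair of groups (r of 0.145 to 0.463 across genes, 0.0744 to 0.394 without X and Y genes), so values with sex as a block are given where they change a call. Alternatives used edgeR 4.0.16 and DESeq2 1.42.0 on recovered reads. Only the main limma fit, without a block, was tested on simulated counts. These had the same dispersion (spread between replicates) for every gene and no sex differences, unlike the data. The edgeR, DESeq2 and block fits were not tested in this way. IMQ was set against untreated as CPM with edgeR's TMM factors. Positions and exon lengths came from GENCODE vM21 (16745 of 16902 symbols), promoters from RefSeq (GRCm38.p6).

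The members and lists were chosen with earlier results of these data known. The text names all members, wider genes past the threshold or among the 4 smallest p under 0.05 per contrast, Cldn3 as the neighbour of Cldn4, and the most similar gene per member.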

Additional observations from a re-analysis of the deposited data

Results flagged for a closer look

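Tjp3 and Ocln were higher in -/- than in control mice in both sexes of untreated epidermis and lower in both sexes under IMQ. The log2 difference of the genotype effects, IMQ minus untreated, was -1.04 for Tjp3 and -0.63 for Ocln. The test of that difference gave a limma adjusted p of 0.476 for each (0.245 and 0.344 with sex as a block), so neither passed the threshold. Leaving out 1 library gave -1.42 to -0.66 for Tjp3, the smallest in size without the female -/- library under IMQ, and -0.81 to -0.45 for Ocln. The controls were +/+ under IMQ and +/- untreated, so treatment and control genotype cannot be told apart in these values.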

How the results depend on the processing

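The fit has 2 libraries per group and 4 residual degrees of freedom, which limits the precision, while every member had at least 461 normalised counts in each library. Members called under IMQ were 0, and 1 (Cgn) with the replicate block (sex) and with DESeq2; without 1 library they were 0 to 1. No member was called in untreated epidermis or for the difference of the contrasts under any alternative. The block changed no other call of a member.

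Genes called under IMQ were 64, but 0 with plain moderation and with each table alone, 358 with the replicate block, 292 with edgeR and the block, 1242 with DESeq2, and 0 to 299 without 1 library (0 whichever untreated library was left out, 3 and 299 without the female and the male -/- library under IMQ, 5 and 49 without the female and the male +/+ library). In untreated epidermis they were 0, but 5 with a pseudocount of 5, 8 with each table alone, 8 with the block, 6 with edgeR and the block, 89 with DESeq2, and 0 to 2 without 1 library (2 whichever IMQ library was left out). For the difference they were 0, and 99 with DESeq2. The cause was not tested.

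Members whose small differences turned sign when 1 library was left out were, in untreated epidermis, Cgn (-0.38 to 0.17), Cldn1 (-0.36 to 0.22) and Cldn4 (-0.63 to 0.17), under IMQ Marveld2 (-0.13 to 0.30) and Cldn1 (-0.23 to 0.16), and for the difference of the contrasts Tjp1 (-0.27 to 0.0090), Cldn1 (-0.26 to 0.32, also -0.030 with quantile normalisation) and F11r (-0.27 to 0.18, also 0.032 with DESeq2). Of 472 alternatives for the genotype values of single members 449 kept sign and side of the threshold. Of those for IMQ minus untreated, 131 moved by less than the spread between replicates and 29 by more. Without 1 library these differences ran, in controls, from -0.39 to -0.11 for Tjp1, -0.42 to -0.0099 for Tjp3, -1.02 to -0.44 for Cldn1 and -0.60 to 0.20 for Cldn4, and in -/- mice from -0.90 to -0.32 for Cldn4.

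The median of IMQ minus untreated over the members, -0.95 in -/- mice and -0.53 in controls, was -1.26 and -0.81 on the deposited values as they stand, where the median over all genes also moved, to -0.32 and -0.26. In log2 of CPM plus 0.5 the median over the members was -0.75 in the female control pair alone, with values from -0.89 for Ocln to -0.04 for Tjp3. In the male control pair the values of the members ran from -1.27 for Marveld2 to 0.27 for Cldn4, with Cldn1 (-0.65) and Tjp3 (-0.39) in the middle.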
